A study of Sus scrofa with 12 samples.

Results

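Transcripts of 10 genes that hold back or drive the passage from G1 into S phase were followed in cultured pig muscle satellite cells. The genes were taken by name: the CIP/KIP inhibitors of cyclin-dependent kinases (CDKs) CDKN1A, CDKN1B and CDKN1C, the INK4 inhibitors CDKN2B, CDKN2C and CDKN2D, the RB family genes RB1, RBL1 and RBL2, and the cyclin D1 gene CCND1. All 10 were found once each among the 31908 genes of the table, and all 10 passed the filter on low values, with 1 FPKM or more in 12 of 12 libraries. FPKM is the number of reads scaled to the gene's length and to the library's reads, so levels of different genes can be compared per length. RNA was sequenced from 4 groups of 3 libraries: the CBP arm at 60h, control cells at 60h, the CBP arm at 0h and control cells at 0h. The labels call the control WT, the column names call it NC, and 0h is proliferation and 60h differentiation. CBP arm samples are taken here to be cells given SGC-CBP30, a compound against the bromodomains of CBP and p300, which acetylate histones, for 48 h in proliferation or 60 h in differentiation. This rests on a treatment text that is given for every sample, controls included, whereas a genotype tag carries the group names. A compound and a genetic change therefore cannot be told apart from the labels. The stated length and window of exposure change together with stage. In the CBP arm's change with stage and in the interaction, stage and exposure therefore cannot be told apart. The dose stands there as 5 with a unit that mixes concentration and amount. The labels also give the cell line as C3H, usually a mouse name, beside a pig organism and genome. No animal, culture or passage is named for a replicate, so p-values measure the spread between libraries, which may be technical.

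CDKs paired with cyclins push a cell through its cycle, and CDK4 or CDK6 with a D-type cyclin acts first, in G1. INK4 proteins bind CDK4 and CDK6 and keep D cyclins off them, while CIP/KIP proteins bind the cyclin-CDK complexes themselves, above all those of CDK2. The RB family proteins pRB, p107 (RBL1) and p130 (RBL2) hold E2F transcription factors back until cyclin-CDK complexes phosphorylate them. In muscle, lasting exit from the cycle precedes fusion of myoblasts. p21 (CDKN1A) and p57 (CDKN1C) have overlapping roles in that exit in mice, and pRB takes part in it. Cyclin D1 is a mitogen-induced gene whose forced expression blocks myogenic factors.

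Libraries held 16095335 to 19155240 reads recovered from the steps of the FPKM values, and the 10 genes rested on 93 to 27301 reads per library. Within a group of 3, the coefficient of variation of a gene's FPKM ran from 0.699% to 17.2%, with a median of 4.97%, against a median of 3.62% from counting alone. Muscle lineage transcripts (PAX7, MYF5, MYOD1, MYOG and DES) were present in every group, and their summed level was 880 to 929 FPKM in the CBP arm against 1454 to 1609 FPKM in control cells at 60h. At 0h that sum was 359 to 388 FPKM in the CBP arm and 1293 to 1321 FPKM in control cells. DES and MYOG together make up most of each sum. Gene by gene, PAX7 and MYF5 were higher and MYOD1, MYOG and DES lower in the CBP arm at 60h (MYF5 did not pass with median-of-ratios scaling), and all 5 were lower in it at 0h. With stage in controls MYOG was higher, PAX7, MYF5 and MYOD1 were lower and DES did not pass. In TPM all 5 passed with stage in controls, 2 as higher and 3 as lower. Fibroblast markers (5 of 5 detected) summed to 1777 to 1963 FPKM in the CBP arm and 3069 to 3222 FPKM in controls at 60h, and to 401 to 418 FPKM in the CBP arm and 784 to 812 FPKM in controls at 0h. COL1A1 carries that sum and was lower in the CBP arm at 60h, where PDGFRA and LUM were higher (LUM not with median-of-ratios scaling) and DCN and THY1 did not pass, with a median log2 change of 0.07 over the 5. At 0h 4 of the 5 were lower and THY1 did not pass. By median-of-ratios scaling 1 was higher and 2 lower at 60h, and all 5 were lower at 0h. Smooth muscle markers summed to 2616 to 2810 FPKM in the CBP arm and 3725 to 3734 FPKM in controls at 60h, and to 1404 to 1452 FPKM in the CBP arm and 3540 to 3690 FPKM in controls at 0h. Of these 5, ACTA2, CNN1 and MYH11 were lower, RGS5 higher and TAGLN not passed at 60h, and all 5 were lower at 0h. Median-of-ratios scaling gave 4 lower and 1 higher at 60h. Endothelial, immune and adipocyte markers stayed at or below a summed 5.02 FPKM in every library, with CD3E at 0 in all 4 groups. Of the cycling cell markers, 4 of 5 were matched, and their sum was 58.7 to 59.3 FPKM in the CBP arm and 55.7 to 61.4 FPKM in controls at 60h, but 158 to 170 FPKM in the CBP arm and 97.3 to 99.0 FPKM in controls at 0h. The near-equal sums at 60h hold genes that differed in direction, with MCM2 higher, CCNB1 and CDK1 lower and TOP2A not passed, while all 4 were higher in the CBP arm at 0h. The part of cell composition and of cycling state in the values below was not tested, and fewer cells of a type cannot be told apart from less RNA per cell.

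CDKN1A was by far the most abundant of the genes in each group, at 579 ± 4.04 and 771 ± 9.60 FPKM in the CBP arm and controls at 60h, and 608 ± 25.5 and 688 ± 36.2 FPKM in the CBP arm and controls at 0h (SD, n = 3 throughout). CCND1 stood second in 3 of the 4 groups. In the CBP arm at 60h it stood behind CDKN1C and CDKN1B as well. CDKN1C changed place most, being the second highest in the CBP arm at 60h and the eighth in the CBP arm at 0h. CDKN2B was the lowest in both groups at 0h and in the CBP arm at 60h, where its libraries overlapped with those of CDKN2C, and CDKN2C was the lowest in controls at 60h. Several neighbours in the order of levels were not separated by their libraries, among them RB1, CDKN2D and RBL1 in the CBP arm at 60h, RBL1, RBL2 and CDKN2D in controls at 60h, CDKN2D with RBL1 and CDKN1C with RBL2 in the CBP arm at 0h, and CDKN1C with CDKN1B and RB1 with CDKN2D in controls at 0h. Across groups, the mean level differed by 11.02-fold between the highest and the lowest group for CDKN1C, 8.37-fold for CCND1 and 3.78-fold for CDKN2B, but by only 1.33-fold for CDKN1A.

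**Figure D1:**
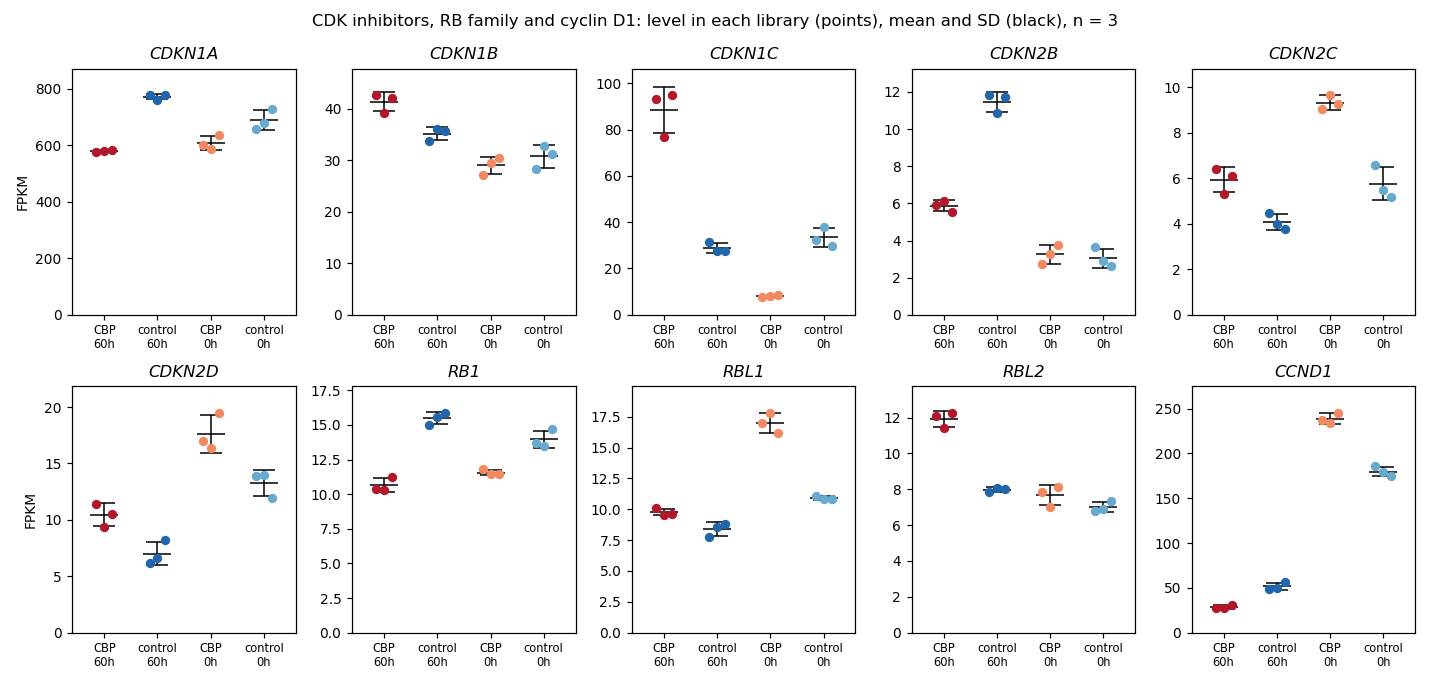
Level of each of the 10 genes in FPKM (linear axes from 0) in every library of the CBP arm and controls at 60h and at 0h. Points are libraries, black marks the mean and SD of 3. CDKN1C is highest in the CBP arm at 60h (76.9 to 94.9 FPKM) and lowest in the CBP arm at 0h (7.74 to 8.35 FPKM), and CCND1 is far lower in both groups at 60h than at 0h.

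CDKN1C (ENSSSCG00000040461, chromosome 2, 2019391 to 2022092 in Sscrofa11.1) encodes p57, a CIP/KIP inhibitor that is imprinted in mammals. The direction of its difference between the CBP arm and controls was opposite at the 2 stages. At 60h it measured 93.3, 76.9 and 94.9 FPKM in the CBP arm, against 31.3, 27.7 and 27.5 FPKM in control cells. Every CBP library was above every control library, and the gene rose 3.07-fold (log2 change 1.58, SE 0.092, limma adjusted p = 1.65e-08). At 0h it measured 7.74, 7.96 and 8.35 FPKM in the CBP arm, against 32.4, 37.9 and 29.9 FPKM in control cells. Here every CBP library was below every control library, and the gene fell by 1.93 on the log2 scale (SE 0.092, adjusted p = 6.80e-09), to a mean 4.17-fold lower than in controls. From 0h to 60h the CBP arm gained 11.02-fold (log2 change 3.30, adjusted p = 1.66e-11). In control cells the stages overlapped and the change did not pass (log2 change -0.20, SE 0.092, 95% interval -0.40 to -0.0018, adjusted p = 0.0698). It passed, as a fall, without control replicate 1 at 60h (adjusted p = 0.0388), control replicate 3 at 0h (0.024) or CBP replicate 2 at 60h (0.0353). The difference between the 2 effects of the CBP arm, at 60h minus at 0h, was 3.51 on the log2 scale (SE 0.13, adjusted p = 1.64e-09), and by size it ranked 4 among 11636 genes. All log2 changes are of FPKM + 1, with p-values adjusted by Benjamini-Hochberg over all genes tested.

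CDKN1A (ENSSSCG00000001565, chromosome 7, 32354776 to 32363771), the p53 target that encodes p21, was lower in the CBP arm at both stages by a small amount. Libraries of the CBP arm held 574, 579 and 582 FPKM at 60h, against 776, 760.1 and 778 FPKM in controls. The groups did not overlap, and CDKN1A fell by 0.41 on the log2 scale (SE 0.038, adjusted p = 9.93e-07). At 0h the values were 600.2, 587 and 636 FPKM in the CBP arm and 657, 679 and 728 FPKM in controls, which also did not overlap, and the fall was 0.18 (log2 change -0.18, SE 0.038, adjusted p = 0.00144). Controls rose by 0.17 from 0h to 60h (adjusted p = 0.00214). In the CBP arm the libraries at 60h were all below those at 0h in FPKM, but the difference did not pass (log2 change -0.07, 95% interval -0.15 to 0.013, adjusted p = 0.116). The log2 change was -9.9e-05 with median-of-ratios scaling and 0.046 in TPM, and did not pass with either. The interaction passed (log2 -0.24, SE 0.054, adjusted p = 0.00309).

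CDKN1B (ENSSSCG00000037144, chromosome 5, 59731224 to 59735831) encodes p27, which accumulates in resting cells and is removed by SKP2-dependent degradation, so that its protein level need not follow its transcript. At 60h it held 42.7, 39.2 and 42.0 FPKM in the CBP arm and 33.7, 36.1 and 35.7 FPKM in controls. All CBP libraries were above all control libraries, and it rose 1.18-fold (log2 change 0.23, SE 0.057, adjusted p = 0.00358), which did not pass with median-of-ratios scaling (log2 change 0.10, adjusted p = 0.141). At 0h the values overlapped, at 27.2, 29.4 and 30.4 FPKM in the CBP arm and 28.2, 32.7 and 31.3 FPKM in controls, and the difference did not pass (log2 change -0.08, 95% interval -0.21 to 0.045, adjusted p = 0.244). After median-of-ratios scaling it passed as a fall (-0.21, adjusted p = 0.00752), and likewise without control replicate 1 at 0h (-0.14, adjusted p = 0.0451). Both arms gained CDKN1B from 0h to 60h, by 0.50 in the CBP arm (adjusted p = 6.97e-06) and by 0.19 in controls (adjusted p = 0.0112, and 0.0516 without control replicate 1 at 0h). The interaction was 0.31 (SE 0.081, adjusted p = 0.00753).

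Among the INK4 genes, CDKN2B (ENSSSCG00000034120, chromosome 1, 200666250 to 200770880), which encodes p15 and responds to TGF-beta in epithelial cells, was the one with lower levels in the CBP arm at 60h. Its 3 libraries there held 5.93, 6.14 and 5.55 FPKM, against 11.8, 10.9 and 11.7 FPKM in controls. The groups were well apart, and it fell by 0.86 on the log2 scale (SE 0.097, adjusted p = 6.13e-06). At 0h both groups were low and overlapped, with 2.75, 3.26 and 3.76 FPKM in the CBP arm and 3.62, 2.87 and 2.62 FPKM in controls (log2 change 0.08, 95% interval -0.14 to 0.29, adjusted p = 0.513). CDKN2B rose with stage in both arms, 1.81-fold in the CBP arm (log2 change 0.70, adjusted p = 3.48e-05) and 3.78-fold in controls (log2 change 1.63, adjusted p = 2.26e-08). The interaction was -0.94 (SE 0.137, adjusted p = 0.000126). The RefSeq interval of CDKN2B overlaps an uncharacterised gene, and reads of overlapping or antisense genes cannot be told apart without a stated strand setting.

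CDKN2C and CDKN2D, which encode p18 and p19 and are known as E2F-responsive members of the family, were higher in the CBP arm at both stages. CDKN2C (ENSSSCG00000003876, chromosome 6, 161160290 to 161166681) held 6.41, 5.32 and 6.08 FPKM in the CBP arm and 4.47, 3.98 and 3.77 FPKM in controls at 60h (log2 change 0.45, SE 0.082, adjusted p = 0.00035). At 0h it held 9.04, 9.67 and 9.28 FPKM in the CBP arm and 6.58, 5.50 and 5.19 FPKM in controls (log2 change 0.62, SE 0.082, adjusted p = 4.20e-05). Neither pair of groups overlapped. CDKN2D (ENSSSCG00000013643, chromosome 2, 69337428 to 69339998) held 11.4, 9.41 and 10.5 FPKM in the CBP arm and 6.21, 6.64 and 8.20 FPKM in controls at 60h, and rose by 0.52 (SE 0.10, adjusted p = 0.00053). At 0h its values were 17.0, 16.3 and 19.5 FPKM in the CBP arm and 13.92, 13.98 and 11.98 FPKM in controls, again without overlap (log2 change 0.38, SE 0.10, adjusted p = 0.00579). Both genes were lower at 60h than at 0h in each arm, CDKN2C by 0.58 in the CBP arm (adjusted p = 4.39e-05) and 0.41 in controls (adjusted p = 0.000808), and CDKN2D by 0.70 in the CBP arm (adjusted p = 4.69e-05) and 0.84 in controls (adjusted p = 1.24e-05). The effects of the CBP arm at the 2 stages were not shown to differ, with an interaction of -0.17 for CDKN2C (95% interval -0.42 to 0.087, adjusted p = 0.253) and 0.14 for CDKN2D (-0.17 to 0.45, adjusted p = 0.427).

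CDKN2A, the neighbour of CDKN2B in mammalian genomes and the source of p16 and ARF, is not among the 10 genes. The table lists its identifier (ENSSSCG00000005134) under the name P14ARF, at 2.26, 2.62 and 2.41 FPKM in the CBP arm and 2.05, 1.84 and 1.55 FPKM in controls at 60h (log2 change 0.29, adjusted p = 0.0101, and 0.0653 with median-of-ratios scaling). At 0h it held 1.89, 1.87 and 1.43 FPKM in the CBP arm and 1.10, 0.922 and 1.03 FPKM in controls (log2 change 0.43, adjusted p = 0.000969). These rest on 25 to 73 reads per library, and p16 and ARF transcripts are not separated.

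CCND1 (ENSSSCG00000037900, chromosome 2, 3621242 to 3633380), the cyclin that INK4 inhibitors keep from CDK4 and CDK6, was lower in the CBP arm at 60h and higher in it at 0h. At 60h the CBP libraries held 27.9, 26.999 and 30.7 FPKM, against 48.5, 50.3 and 56.5 FPKM in controls. All CBP values were below all control values, and CCND1 fell by 0.84 on the log2 scale (SE 0.056, adjusted p = 5.88e-08). At 0h the order was turned round, with 237, 234 and 245 FPKM in the CBP arm against 185, 179 and 175 FPKM in controls. The groups again did not overlap, and CCND1 rose 1.33-fold (log2 change 0.41, SE 0.056, adjusted p = 5.47e-05). From 0h to 60h it fell in both arms, by 3.02 in the CBP arm (adjusted p = 5.53e-13) and by 1.78 in controls (adjusted p = 1.06e-10). The interaction was -1.24 (SE 0.079, adjusted p = 1.33e-07).

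The 3 pocket protein genes went different ways in the CBP arm. RB1 (ENSSSCG00000009401, chromosome 11, 19186754 to 19317642) was lower at both stages. It held 10.4, 10.3 and 11.2 FPKM in the CBP arm and 15.02, 15.6 and 15.9 FPKM in controls at 60h, a fall by 0.50 (SE 0.042, adjusted p = 4.08e-07). Its values at 0h were 11.8, 11.5 and 11.4 FPKM in the CBP arm and 13.7, 13.5 and 14.7 FPKM in controls, a fall by 0.25 (SE 0.042, adjusted p = 0.000237). No CBP library reached the lowest control library of its stage. The interaction of -0.25 passed (SE 0.059, adjusted p = 0.00383). RB1 rose by 0.14 with stage in controls (adjusted p = 0.0102). In the CBP arm it fell by 0.11 with stage (adjusted p = 0.0329), but it no longer passed with median-of-ratios scaling (-0.044, adjusted p = 0.38), in TPM (-0.0025, adjusted p = 0.962), in a fit of those 2 groups alone (adjusted p = 0.054), and without any 1 of CBP replicates 1 and 2 of either stage (adjusted p = 0.0529 to 0.109). The RefSeq interval of RB1 contains LPAR6, a receptor gene that lies within an RB1 intron in humans.

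RBL1 (ENSSSCG00000007331, chromosome 17, 40201214 to 40279318), which encodes p107, an E2F target that is abundant in cycling cells, was higher in the CBP arm, more so at 0h. At 60h it held 10.1, 9.58 and 9.65 FPKM in the CBP arm and 7.74, 8.55 and 8.84 FPKM in controls, without overlap (log2 change 0.20, SE 0.048, adjusted p = 0.00252). It did not pass with median-of-ratios scaling (0.082, adjusted p = 0.154). At 0h it held 17.0, 17.8 and 16.2 FPKM in the CBP arm and 11.08, 10.8 and 10.8 FPKM in controls, and rose 1.56-fold (log2 change 0.59, SE 0.048, adjusted p = 6.85e-07). The interaction was -0.39 (SE 0.068, adjusted p = 0.000486). With stage it fell by 0.74 in the CBP arm (adjusted p = 3.62e-08) and by 0.35 in controls (adjusted p = 4.55e-05).

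RBL2 (ENSSSCG00000032648, chromosome 6, 31757718 to 31802047), which encodes p130, the pocket protein typical of resting cells, was higher in the CBP arm at 60h. It held 12.1, 11.4 and 12.3 FPKM in that group, against 7.85, 8.10 and 8.02 FPKM in controls, well apart (1.49-fold, log2 change 0.52, SE 0.051, adjusted p = 1.66e-06). At 0h the groups overlapped, with 7.87, 7.02 and 8.11 FPKM in the CBP arm and 6.79, 6.89 and 7.34 FPKM in controls, and the difference did not pass (log2 change 0.11, 95% interval 0.0019 to 0.22, adjusted p = 0.0717). It passed without CBP replicate 2 (0.17, adjusted p = 0.00877) or control replicate 3 (0.14, adjusted p = 0.0481) at 0h. The interaction was 0.41 (SE 0.072, adjusted p = 0.000503). RBL2 rose with stage by 0.58 in the CBP arm (adjusted p = 5.82e-07) and by 0.17 in controls (adjusted p = 0.0116). The RefSeq intervals of RBL1 and RBL2 each overlap another gene, an uncharacterised one and AKTIP.

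**Figure D2:**
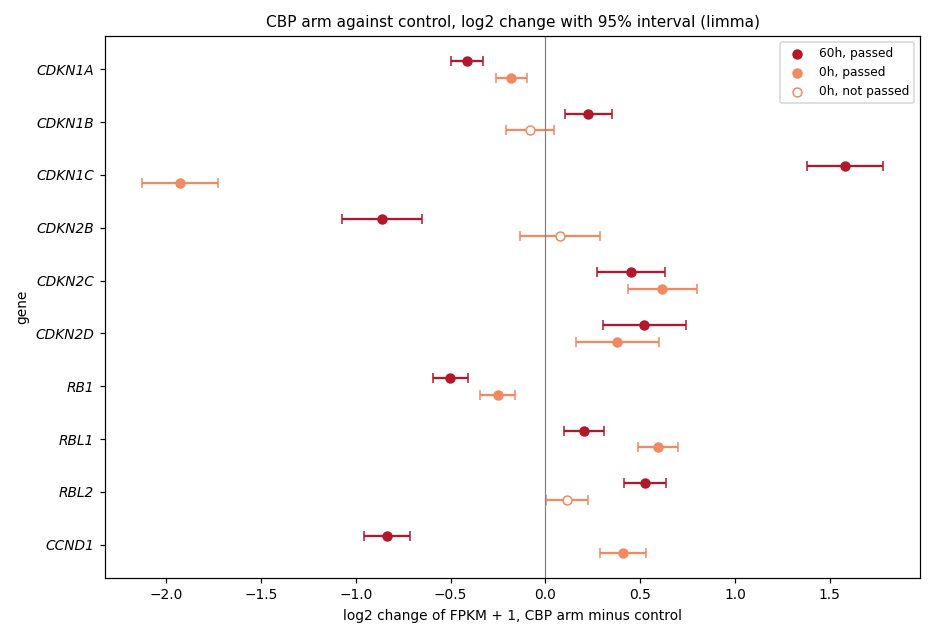
Log2 change of FPKM + 1 between the CBP arm and controls for each gene, at 60h (dark red) and 0h (orange), with 95% intervals from limma; filled points passed at an adjusted p under 0.05. CDKN1C and CCND1 lie on opposite sides of 0 at the 2 stages, at 1.58 and -0.84 at 60h and at -1.93 and 0.41 at 0h, and RB1 and CDKN1A lie below 0 at both.

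The makeup of the RB family differed between groups. Its summed level overlapped between the CBP arm and controls at 60h but not at 0h, when every library of the CBP arm was higher. The sum was 32.3 ± 0.919 FPKM in the CBP arm and 31.8 ± 1.11 FPKM in controls at 60h, and 36.2 ± 0.472 FPKM in the CBP arm and 31.9 ± 0.835 FPKM in controls at 0h. RB1 led the family in both control groups, with 48.3% to 49.1% at 60h and 43.2% to 44.7% at 0h. RBL2 led it in the CBP arm at 60h, with 36.5% to 37.1% against 32.0% to 33.9% for RB1. RBL1 led it in the CBP arm at 0h, with 45.3% to 49.1% against 31.6% to 32.2% for RB1. Shares of 1 family are tied to each other, and they were not tested.

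Within the 6 CDK inhibitors, CDKN1A made up 78.2% to 80.9% of the summed FPKM in the CBP arm at 60h and 88.0% to 90.4% in the libraries of the other groups. CDKN1C made up 12.1% ± 1.17 in the CBP arm and 3.36% ± 0.233 in controls at 60h, and 1.19% ± 0.0271 in the CBP arm and 4.32% ± 0.609 in controls at 0h. Among the 3 INK4 genes, CDKN2B held 26.5% ± 2.57 in the CBP arm and 50.9% ± 1.55 in controls at 60h, and 10.7% ± 1.06 in the CBP arm and 13.7% ± 1.16 in controls at 0h. CDKN2D was the leading INK4 transcript in 3 of the groups and CDKN2B in controls at 60h.

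CCND1 was set beside the other D-type cyclins. CCND3, the D cyclin that stays on in differentiated muscle, fell by 0.65 in the CBP arm at 60h (13.8 ± 0.818 FPKM, and 22.2 ± 0.643 FPKM in controls, adjusted p = 4.07e-08). It fell by 0.93 at 0h (18.7 ± 0.672 FPKM in the CBP arm and 36.6 ± 0.479 FPKM in controls, adjusted p = 3.74e-09). CCND2 had a log2 change of 0.12 at 60h, which passed (adjusted p = 0.0279) but not with median-of-ratios scaling (-0.0064, adjusted p = 0.907), and at 0h it fell by 0.12 (adjusted p = 0.0323). CCND1 made up 44.1% ± 1.20 of summed D cyclin FPKM in the CBP arm and 54.8% ± 1.88 in controls at 60h, and 86.7% ± 0.432 in the CBP arm and 76.2% ± 0.578 in controls at 0h. Summed D cyclin levels were 64.6 ± 2.67 FPKM in the CBP arm and 94.4 ± 5.11 FPKM in controls at 60h, and 275 ± 5.58 FPKM in the CBP arm and 236 ± 5.29 FPKM in controls at 0h. Their kinase partners, chosen with CCND2 for their link to CCND1 after values were seen, differed in direction. CDK4 rose in the CBP arm, 1.41-fold at 60h and 1.28-fold at 0h. On the log2 scale CDK6 fell by 0.40 at 60h and by 0.58 at 0h.

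**Figure D3:**
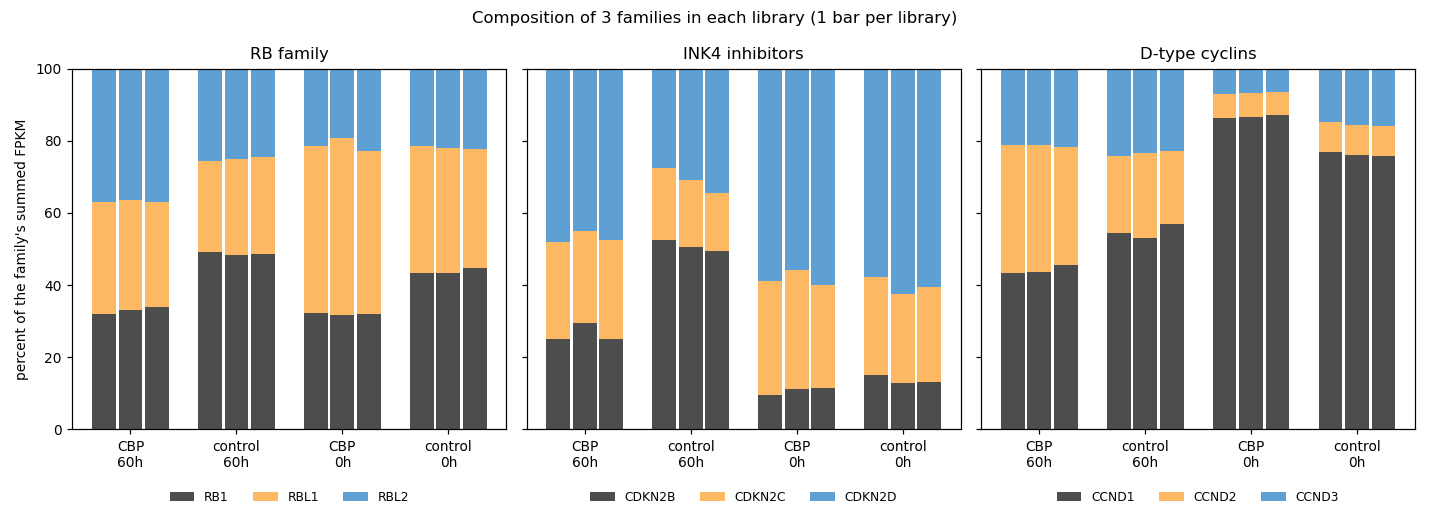
Percent of the summed FPKM of the RB family, the INK4 inhibitors and the D-type cyclins taken by each gene, 1 bar per library, for the CBP arm and controls at 60h and at 0h. RBL2 takes 36.8% of the RB family in the CBP arm at 60h and RBL1 46.9% in the CBP arm at 0h, while RB1 takes 48.6% and 43.8% in controls at 60h and 0h.

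Counts of calls among the 10 genes were read against the share of all 11636 genes called, which was high in every comparison. At 60h all 10 were called between the CBP arm and controls, against 71.6% of all genes. Of these 6 were higher and 4 lower, where 44.7% of all genes were higher and 27% lower. At 0h 7 of 10 were called, against 62.3% of all genes, with 4 higher and 3 lower against 44.2% and 18.1%. With stage, 9 of 10 were called in the CBP arm, against 72.7% of all genes, with 4 higher and 5 lower against 31.3% and 41.5%. In controls 9 of 10 were called with stage, against 66.8%, with 5 higher and 4 lower against 28.8% and 38%. The interaction was called for 8 of 10, against 50.9% of all genes, with 3 higher and 5 lower against 24.3% and 26.7%. The counts are a description and were not tested as a set. Between the CBP arm and controls, groups did not overlap for all 10 at 60h and for 7 at 0h, against 74.3% and 66.8% of all genes. Between stages they did not overlap for all 10 in the CBP arm and for 9 in controls, against 75.2% and 70.8%. The median log2 change of the 10 was 0.21 at 60h and 0.09 at 0h, against 0.10 and 0.12 over all genes. Changes of 1 or more on the log2 scale were found between the CBP arm and controls in CDKN1C alone among the 10 at each stage, against 7.55% of all genes at 60h and 3.17% at 0h. With stage such changes were found in CDKN1C and CCND1 in the CBP arm and in CDKN2B and CCND1 in controls, against 9.69% and 6.35% of all genes, and interactions of that size in CDKN1C and CCND1, against 5.33%.

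Comparisons with a shared group are given side by side, since the effects of stage and of the CBP arm use the same libraries. With median-of-ratios scaling, the median over all genes of the CBP arm's log2 change shifted by -0.11 at 60h and -0.12 at 0h. With it, among the genes called, 47.9% were higher in place of 62.4% at 60h and 49.2% in place of 71.0% at 0h. The members called were then 4 higher and 4 lower at each stage. Of all 11636 genes, 3850 were higher and 4180 lower at 60h in that fit, and 2990 higher and 3087 lower at 0h. With stage, 43.0% of the genes called were higher in the CBP arm and 43.1% in controls, and 54.6% and 53.4% in TPM. Relative to the median of all genes, CDKN1C stood at 1.48 at 60h and -2.05 at 0h, CCND1 at -0.94 and 0.29, RB1 at -0.61 and -0.37, RBL1 at 0.097 and 0.47, RBL2 at 0.42 and -0.0067, and CDKN1A at -0.52 and -0.30.

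**Figure D4:**
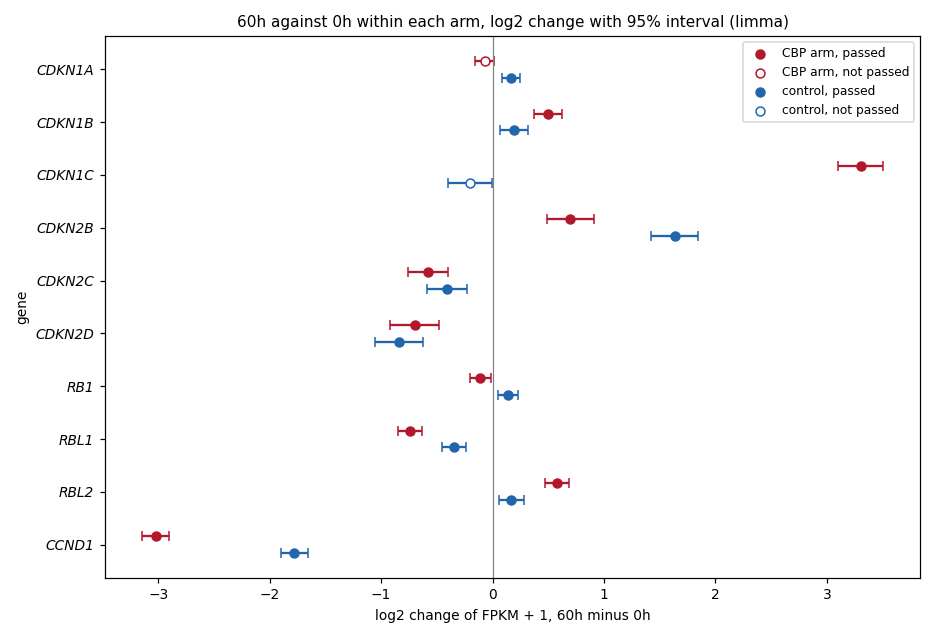
Log2 change of FPKM + 1 from 0h to 60h (60h minus 0h) for each gene in the CBP arm (red) and controls (blue), with 95% intervals from limma; filled points passed at an adjusted p under 0.05. CCND1 lies at -3.02 in the CBP arm and -1.78 in controls, and CDKN1C at 3.30 in the CBP arm and, not passing, at -0.20 in controls.

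Other genes of the same pathway were counted by list, to be read beside the shares of all genes called in the CBP arm, which were 44.7% higher and 27% lower at 60h and 44.2% higher and 18.1% lower at 0h. Medians over all genes were 0.10 at 60h and 0.12 at 0h. After median-of-ratios scaling, 3850 of all 11636 genes were called higher and 4180 lower at 60h. At 0h 2990 were then higher and 3087 lower. List counts with that scaling, here and below, are to be read beside these numbers. E2F target genes of the G1/S transition rose in the CBP arm in 12 of 13 tested cases at 60h (11 with median-of-ratios scaling), with a median log2 change of 0.57. The other gene, TYMS, fell by 0.41 and was chosen for mention after its value was seen. At 0h all 13 rose, with a median of 0.73. The replication helicase subunit MCM3 (0.95 at 60h, 0.85 at 0h) and the clamp PCNA (0.89 and 0.80) were among the 4 largest at both stages, and the origin protein ORC1 had the largest change at 0h (0.91). Of 10 E2F and DP factors, 5 rose and 1 fell at 60h, and 4 rose and none fell at 0h, so that the share that rose was near that of all genes. After median-of-ratios scaling 4 rose and 1 fell at each stage. E2F1, the activator that pRB binds, rose 2.44-fold at 60h and 1.86-fold at 0h. On the log2 scale E2F7 rose by 0.74 at each stage, and E2F4, the usual partner of p107 and p130, fell by 0.29 at 60h.

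Of 13 cyclins and CDKs tested other than CCND1, 5 rose and 6 fell at 60h, and 8 rose and 3 fell at 0h, with medians of -0.05 and 0.35. After median-of-ratios scaling 4 rose and 7 fell at 60h, and 7 rose and 3 fell at 0h. Cyclin CCNE2 rose 2.15-fold at 60h and 2.12-fold at 0h and its partner CDK2 1.85-fold and 1.81-fold. The mitotic cyclin CCNB1, on the log2 scale, fell by 1.03 at 60h and rose by 0.73 at 0h. The MuvB core, B-MYB and FOXM1 time the late cell cycle genes, and in resting cells the MuvB core joins p130 in the DREAM complex. Of 5 tested genes of this list, 2 passed as higher at 60h, LIN37 at 0.53 and MYBL2 (B-MYB) at 0.21. MYBL2 did not pass there with median-of-ratios scaling (adjusted p = 0.0857). At 0h 5 passed as higher, with FOXM1 (0.61) and MYBL2 (0.57) the largest. After median-of-ratios scaling 1 rose and 2 fell at 60h, and 3 rose at 0h. Of 4 tested CDK phosphatases and kinases, 1 rose and 1 fell at each stage. The phosphatase CDC25B rose by 0.26 and the kinase WEE1 fell by 0.45 at 60h, while CDC25B fell by 0.58 and CDC25A rose by 0.32 at 0h.

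Genes for the turnover of p27 and D cyclins rose in 8 of 11 tested cases at 60h and fell in 3, with USP19 (0.41) and AMBRA1 (0.38), an adaptor for the breakdown of D cyclins, the largest. Their median was 0.30, and the share that fell was that of all genes. After median-of-ratios scaling 7 rose and 3 fell at 60h. At 0h 7 rose and none fell, but after median-of-ratios scaling none rose and 1 fell, so no direction is given for that stage. SKP2, the F-box protein that targets p27 and named for that role, rose by 0.28 at 60h. Of 15 genes known to regulate the inhibitors, 7 rose and 4 fell at 60h (4 and 4 after median-of-ratios scaling), and 3 rose and 4 fell at 0h (1 and 6). The shares at 60h were about those of all genes and say nothing of the list as a group. At 60h SMAD3, a carrier of TGF-beta signals, rose 2.58-fold and FOXO3 1.90-fold. On the log2 scale KLF4 fell by 0.95 and the p53 antagonist MDM2 by 0.88 at 60h. At 0h the histone methyltransferase EZH2 rose by 0.74, and KLF6, KLF4 and FOXO1 fell by 0.71, 0.55 and 0.40.

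For the 3 members with the widest range between group means, the genes most like them were sought by Pearson's r of log2(FPKM + 1) over the 12 libraries, among 7871 named genes with 5 FPKM or more in any group. The libraries form 4 groups, so r mostly reflects 4 group levels, and it is given as a description. For CDKN1C these were DAAM1 (r = 0.984), SOX8 (0.983) and CD63 (0.978), and 18 genes were above 0.95. SOX8 held 23.7 and 12.6 FPKM in the CBP arm and controls at 60h, and 5.22 and 15.02 FPKM in the CBP arm and controls at 0h. For CCND1 they were HSPD1 (0.998), NQO1 (0.997) and FES (0.996), with 421 genes above 0.95. NQO1 held 5.27 and 12.5 FPKM in the CBP arm and controls at 60h, and 93.4 and 72.8 FPKM in the CBP arm and controls at 0h. For CDKN2B they were the interferon-stimulated IFI6 (0.988), SMURF1 (0.986) and NRP1 (0.986), with 68 genes above 0.95. IFI6 held 17.2 and 97.1 FPKM in the CBP arm and controls at 60h, and 3.58 and 2.00 FPKM in the CBP arm and controls at 0h.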

How the data were processed

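RNA was turned into libraries with a VAHTS Universal V8 kit, per the labels' protocols. Trimmomatic and featureCounts, without versions, and Sscrofa11.1 are named by the submitters' processing notes. No source used here gives the aligner, annotation release or strand setting. The authors deposited FPKM values for 31908 genes in 12 libraries, replicates not pooled. Because these keep the steps of single reads, library totals and reads were recovered (22521 of 22521 genes above 0 were whole within 0.001, in Python 3.11.15), and used for depth and for a voom fit. Reads summed over genes came to 99.991% to 99.993% of the recovered totals.

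Genes with 1 FPKM or more in at least 3 libraries (11636) were fitted as log2(FPKM + 1) with limma 3.58.1 in R 4.3.3, as 4 group means with a trended empirical Bayes spread. There were 5 comparisons, each two-sided, adjusted by Benjamini-Hochberg over all genes and called under 0.05. The script was tested on simulated data. Alternatives were other pseudocounts, filters, scalings, fits and left-out libraries. All replicate pairs differed by more than sampling noise (chi-square per degree of freedom 2.16 to 4.70). Same-numbered replicates did not deviate together, so the numbers were not taken as pairs. Positions are RefSeq's for Sscrofa11.1, matched by symbol. Pathway examples are up to 4 called genes with the largest change per list, and others are marked in the text. The members and lists were chosen with earlier results of these data known. The tables used here hold no transcript, protein or promoter sequence for these genes, and none is shown.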

Additional observations from a re-analysis of the deposited data

Results flagged for a closer look

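For 8 of the 10 genes the effect of the CBP arm differed between 60h and 0h by limma's interaction test (adjusted over 11636 genes, of which 50.9% passed). On the log2(FPKM + 1) scale the effect at 60h minus that at 0h was 3.51 for CDKN1C and -1.24 for CCND1, whose effects had opposite signs at the 2 stages and passed at both. It was -0.94 for CDKN2B, which passed at 60h only, and 0.41 for RBL2, which did likewise. It was 0.31 for CDKN1B (adjusted p = 0.00753), which passed as higher at 60h only, but with median-of-ratios scaling as lower at 0h (-0.21, adjusted p = 0.00752) and not at 60h (0.10, adjusted p = 0.141). It was -0.39 for RBL1, higher in the CBP arm at both stages. The rise of RBL1 at 60h did not pass with median-of-ratios scaling (0.082, adjusted p = 0.154). The difference between the effects was -0.25 for RB1 and -0.24 for CDKN1A, lower in the CBP arm at both stages.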

How the results depend on the processing

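Counts of called genes and of called members, over both directions, stayed within 1.5 times their main value under the alternatives run. By direction, the genes called higher at 0h numbered 5148, but 2990 with median-of-ratios scaling. Of 990 single values for the members under an alternative, 973 kept their side of the threshold, 10 no longer passed, 7 newly passed and none passed with the opposite sign, and those that crossed it concern CDKN1B, CDKN1C, RB1, RBL1 and RBL2. With any 1 library left out, members called were 10 at 60h, 7 to 8 at 0h, 8 to 9 with stage in the CBP arm, 8 to 10 with stage in controls and 8 for the interaction. Genes called then ranged from 7822 to 8337 at 60h, 6670 to 7222 at 0h, 7981 to 8418 and 7240 to 7796 with stage in the CBP arm and controls, and 5455 to 5756 for the interaction. With the replicate block, members called were 6 higher and 4 lower at 60h and 4 higher and 3 lower at 0h, as without it, and same-numbered replicates correlated at -0.0935 to 0.082 in their deviations. A planned count model on recovered reads (edgeR) was not run, since the deposited unit is FPKM. With limma-voom on those reads, an alternative chosen after the data were seen, the members called in each direction were the same in number in every comparison. That fit called 8422 genes at 60h, 7394 at 0h, 8580 and 7850 with stage in the CBP arm and controls, and 5987 for the interaction. Depth was lowest for CDKN2D at 60h (93 to 172 reads per library) and for CDKN2B at 0h (123 to 171).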
